A study of Homo sapiens with 28 samples.

Results

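The unfolded protein and amino acid stress genes are a module of 34 genes that keep protein folding in the endoplasmic reticulum (ER) and the supply of amino acids in balance. They were taken by symbol from a list written with earlier results of these data known. Where a symbol repeated, the row with the highest mean count was used. All 34 were found among the 30887 rows of the deposited table, and all 34 were among the 15058 genes that passed the filter on low counts. By role they are 14 ER chaperones and folding enzymes, 3 genes of ER-associated degradation, 3 stress sensors, 5 transcription factors, 4 enzymes of amino acid synthesis, 4 amino acid transporter genes and CHAC1, an enzyme of glutathione breakdown.

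The cells were Kelly, an established MYCN-amplified neuroblastoma line, reverse transfected with Dharmacon microRNA mimics at 25 nM using Dharmafect 1 and harvested after 48 h. A mimic is a synthetic small RNA that raises the activity of 1 microRNA. There were 7 groups of 4 libraries. One received a non-targeting scrambled control, and the others received a mimic of miR-99b-5p, of miR-485-3p, of miR-380-3p, of miR-1283, of miR-1915-3p or of miR-100-3p, with the line, dose, reagent and time shared by all. Every library therefore comes from 1 cell line that was itself transfected, and no untransfected group was analysed here. Nothing in the labels says whether replicate libraries stem from separate cultures, and the p-values below reflect only how far these libraries spread, which may be technical.

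When unfolded proteins build up in the ER, the membrane sensors ATF6, ERN1 (IRE1) and EIF2AK3 (PERK) switch on the unfolded protein response: ATF6 is cut to release a transcription factor, ERN1 splices the XBP1 mRNA, and EIF2AK3 slows translation while favouring that of ATF4. ATF6 and spliced XBP1 raise chaperone and degradation genes through elements such as ERSE, and ATF4 raises genes of amino acid synthesis and uptake through elements that also answer to amino acid shortage. Much of this control acts through splicing, cleavage and translation, which mRNA levels do not report.

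Expected counts summed to between 10.99 M and 23.3 M per library. Levels are given as CPM, counts per 1 M of effective library size, and levels between genes as TPM, which also divides by transcript length. The sympathoadrenal markers HAND2 (397 to 894 CPM), GATA3 (178 to 371 CPM) and DBH (868 to 1850 CPM) were present in all 28 libraries, as was MYCN (3230 to 6930 CPM). Of the 5 markers of other cell types, PECAM1 was at 0 in 26 libraries. The others were detected in all 28: VWF (0.747 to 3.92 CPM), COL1A1 (3.39 to 13.2), KRT19 (0.948 to 3.4) and EPCAM (0.13 to 0.685). The 5 markers together summed to 12.2 to 15.0 CPM in the control libraries, 6.38 to 7.74 CPM under miR-99b-5p and 9.36 to 17.1 CPM under the other mimics. Their part in the results was not tested. In bulk RNA, fewer cells expressing a gene and less of its mRNA per cell cannot be told apart. The libraries also differed in how their counts leaned with transcript GC content: the GC slope, in log2 units per unit GC fraction against the mean library, ran from -2.16 (miR-99b-5p replicate 2) to 3.04 (miR-485-3p replicate 2, which stood apart from the rest).

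The mature sequences of the 6 microRNAs, from RefSeq (GRCh38.p14), are shown because the seed, bases 2 to 8 in capitals, sets which 3′ UTRs can pair. The labels name the mimics by microRNA and do not give the sequences of their strands.
miR-99b-5p: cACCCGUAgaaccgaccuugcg
miR-380-3p: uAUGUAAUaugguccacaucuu
miR-485-3p: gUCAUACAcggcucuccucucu
miR-100-3p: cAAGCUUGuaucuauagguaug
miR-1915-3p: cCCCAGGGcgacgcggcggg
miR-1283: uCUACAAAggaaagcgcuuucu
The 6 seeds all differ. The heptamer complementary to each seed was looked for in the longest GENCODE v29 3′ UTR (GRCh38) of each of the 34 genes. For miR-99b-5p (heptamer TACGGGT, in 1.26% of 12535 tested genes with a UTR) no stress gene had a match. For miR-380-3p (ATTACAT, 15.0%) the only one was SLC7A11, which had 3. For miR-485-3p (TGTATGA, 14.3%) PDIA6, SEL1L and PSAT1 had 1 each. For miR-100-3p (CAAGCTT, 10.5%) ATF6 had 2, and EIF2AK3, SEL1L and SLC7A1 had 1 each. For miR-1915-3p (CCCTGGG, 23.1%) there were 6 (HSPA5, ERN1, HYOU1, SEL1L, CHAC1 and SLC7A5), and for miR-1283 (TTTGTAG, 20.8%) there were 10. A match is a description of these letters and not a shown binding site.

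The matches of the genes described below, with the heptamer in capitals, the genome position of the heptamer on GRCh38 and the strand of the gene, read as follows.
SEL1L for miR-485-3p (chr14:81475271-81475277, minus strand): aagagagccataTGTATGAaagcgtat
PSAT1 for miR-485-3p (chr9:78329983-78329989, plus strand): ttttctttgtaaTGTATGActacgaga
PDIA6 for miR-485-3p (chr2:10783848-10783854, minus strand): aatgccgataaaTGTATGAagttagta
SLC7A11 for miR-380-3p (chr4:138171070-138171076, minus strand): ttaagccttcaaATTACATtatcaaca
SLC7A11 for miR-380-3p (chr4:138168539-138168545, minus strand): aacaagagtataATTACATaacagaat
SLC7A11 for miR-380-3p (chr4:138165292-138165298, minus strand): tgcgtagaatggATTACATggtagtga
The 3′ UTR of SLC7A11 is 7859 bases long and that of SEL1L 5423, against a median of 1442 over the tested genes with a UTR, so a match in these genes is the easier to meet.

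The promoters of 5 genes that fell under miR-99b-5p are shown because they hold letters of the elements through which the stress factors act. Windows ran from 250 bases before to 50 after the RefSeq start (GRCh38.p14), printed in the direction of the gene with the match in capitals, and both strands were searched.
HSPA5 (chr9:125241294-125241593, minus strand): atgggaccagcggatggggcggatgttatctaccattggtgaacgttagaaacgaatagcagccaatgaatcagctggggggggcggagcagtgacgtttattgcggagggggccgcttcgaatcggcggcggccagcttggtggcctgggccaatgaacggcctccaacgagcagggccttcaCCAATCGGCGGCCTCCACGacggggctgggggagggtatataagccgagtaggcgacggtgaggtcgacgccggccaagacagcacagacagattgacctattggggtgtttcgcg
SDF2L1 (chr22:21642052-21642351, plus strand): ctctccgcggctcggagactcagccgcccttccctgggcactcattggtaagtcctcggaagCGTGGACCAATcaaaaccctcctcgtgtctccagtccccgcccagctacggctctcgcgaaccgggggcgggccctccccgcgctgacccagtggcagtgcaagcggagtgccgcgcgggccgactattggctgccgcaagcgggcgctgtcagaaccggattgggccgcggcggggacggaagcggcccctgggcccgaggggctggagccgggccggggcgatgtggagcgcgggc
CRELD2 (chr22:49918384-49918683, plus strand): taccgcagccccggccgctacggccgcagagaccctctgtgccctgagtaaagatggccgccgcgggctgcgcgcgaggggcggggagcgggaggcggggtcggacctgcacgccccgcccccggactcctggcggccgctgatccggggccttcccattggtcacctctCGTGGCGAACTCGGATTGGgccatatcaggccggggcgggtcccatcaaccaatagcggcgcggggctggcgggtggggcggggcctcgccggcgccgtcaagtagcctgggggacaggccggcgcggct
ASNS (chr7:97872359-97872658, minus strand): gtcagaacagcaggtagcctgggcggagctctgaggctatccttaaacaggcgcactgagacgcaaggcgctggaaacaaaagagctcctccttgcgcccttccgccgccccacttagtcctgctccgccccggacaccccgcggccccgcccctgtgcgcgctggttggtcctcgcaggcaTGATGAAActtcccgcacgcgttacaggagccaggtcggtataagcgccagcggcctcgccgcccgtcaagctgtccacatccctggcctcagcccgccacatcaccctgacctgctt
CHAC1 (chr15:40953221-40953520, plus strand): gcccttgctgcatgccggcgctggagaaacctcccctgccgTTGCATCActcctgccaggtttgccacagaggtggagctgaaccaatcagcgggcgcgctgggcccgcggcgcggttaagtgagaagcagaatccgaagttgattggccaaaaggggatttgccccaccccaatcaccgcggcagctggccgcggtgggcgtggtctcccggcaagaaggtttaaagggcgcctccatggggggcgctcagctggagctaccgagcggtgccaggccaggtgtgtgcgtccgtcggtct
HSPA5 and CRELD2 hold an ERSE (CCAAT and CCACG with 9 bases between, in CRELD2 on the opposite strand), SDF2L1 an ERSE-II (ATTGG and CCACG with 1 base between, opposite strand), and ASNS and CHAC1 the core of an amino acid response element (TGATGNAA, in CHAC1 on the opposite strand). Of the 34 genes, 31 had a window. SLC7A11 and PSPH, which also fell under miR-99b-5p, had none. The ERSE was in 7 of them (HSPA5, HSP90B1, PDIA6, CALR, CANX, XBP1 and CRELD2) and in 0.0916% of all 27305 genes searched. The ERSE-II was in 3 (SDF2L1, HERPUD1 and HYOU1, against 0.0696%), the UPRE (TGACGTGG) in 1 (HYOU1, 0.927%), and the amino acid element in 6 (HERPUD1, ASNS, CHAC1, SLC3A2, SLC7A1 and ATF3, 4.46%). The list was written around these response pathways, so its content of elements is a description of the list.

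In control cells the module spanned more than 2 orders of magnitude per transcript length. The ER lumen chaperones led: CALR, the calcium-binding chaperone calreticulin, stood at 563 ± 47.7 TPM (SD, n = 4), and HSP90B1 (GRP94) at 466 ± 46.6 TPM. ATF4, the transcription factor of the amino acid arm, followed at 439 ± 21.3 TPM, and PDIA3, a disulfide isomerase of glycoprotein folding, at 391 ± 12.0 TPM. These neighbours lie within or close to each other's SD: the order of HSP90B1 and ATF4 is not set by these libraries. PDIA6 (275 ± 21.7 TPM), CANX (274 ± 28.4) and HSPA5 (215 ± 26.7) came next. At the low end were EIF2AK3 (5.28 ± 0.429 TPM), CHAC1 (4.35 ± 0.477), the cystine transporter SLC7A11 (1.89 ± 0.424) and the sensor ERN1 (1.70 ± 0.201), the last pair again within their spread.

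**Figure D1:**
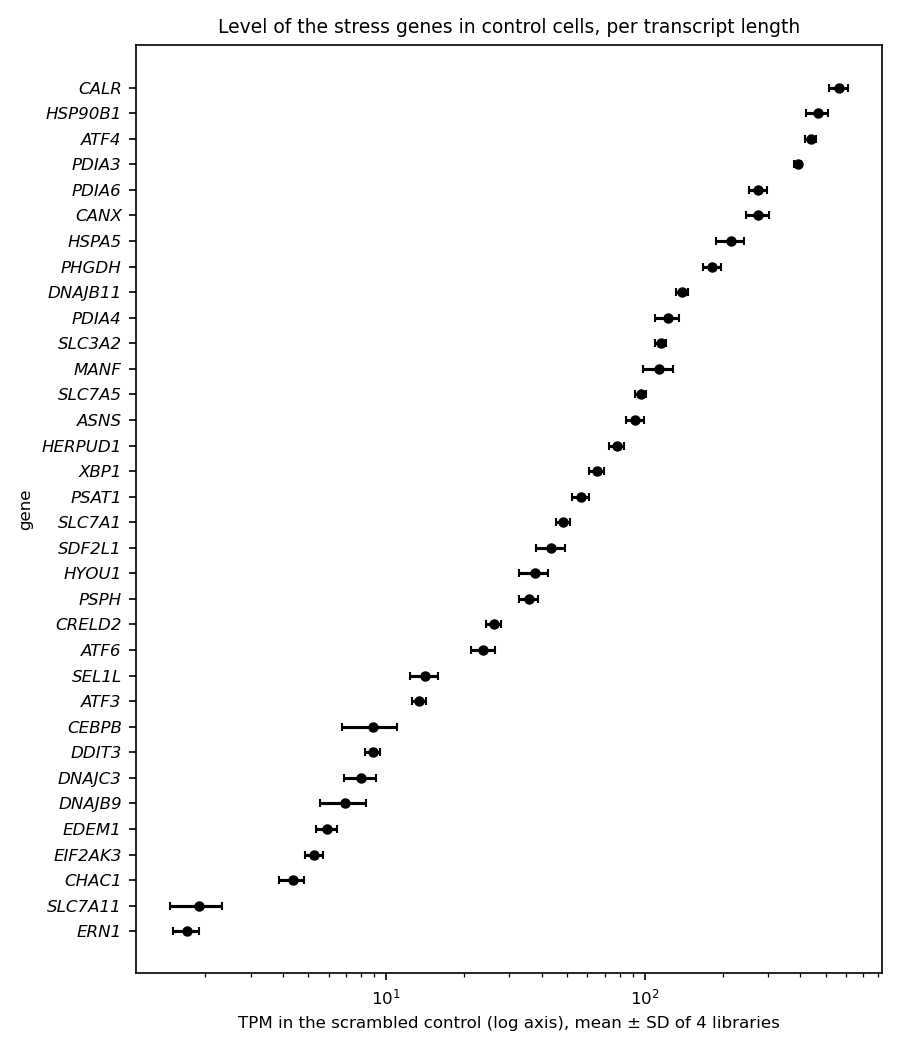
Level of each of the 34 stress genes in the scrambled control, in TPM on a log axis, as mean ± SD of 4 libraries. Chaperones such as CALR (563 TPM) and HSP90B1 (466 TPM) lie at the top and SLC7A11 (1.89 TPM) and ERN1 (1.70 TPM) at the bottom.

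Within a group the SD of log2 CPM had a median of 0.154 over the 34 genes, against 0.184 over all genes tested and 0.156 over the 11555 genes at least as abundant as the lowest of the 34. SLC7A1 (0.0848), DNAJB11 (0.0886) and PDIA3 (0.0928) varied least between libraries of a group. SDF2L1 (0.346), CHAC1 (0.346) and CEBPB (0.338) varied most. The module's share of all counts was 0.553% ± 0.0288 in the control and ran from 0.524% to 0.581% as group means under the mimics.

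The first question was which of these mRNAs differed between the 7 groups at all. In edgeR's quasi-likelihood test of any difference, 23 of the 34 genes (67.6%) were called at an adjusted p under 0.05, where 48.7% of all tested genes were. The smallest p-values belonged to SLC7A11 (adjusted p = 5.43e-09), the asparagine synthetase ASNS (2.19e-06), the degradation adaptor SEL1L (2.44e-06), the arginine and lysine transporter SLC7A1 (2.69e-06) and the chaperone HSPA5 (9.1e-06). EDEM1, PSAT1, SDF2L1, CRELD2 and DDIT3 completed the first 10, with adjusted p up to 0.000499. Among the mRNAs of the signalling arms, those not called were EIF2AK3 (adjusted p = 0.143), ATF4 (0.80), XBP1 (0.0822) and ATF6 (0.203). CANX (0.991), the membrane chaperone calnexin, had the largest p.

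Against the scrambled control there were 24 called gene and mimic combinations, 18 lower and 6 higher, and 11 of the 24 had an absolute log2 change of at least 0.5. They involved 17 of the 34 genes. Of these, 12 were called under 1 mimic, 4 under 2 (SDF2L1, CRELD2, DDIT3 and ASNS), and SLC7A11 under 4, and the other 17 genes were called under none. All 6 comparisons share the same 4 control libraries.

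**Figure D2:**
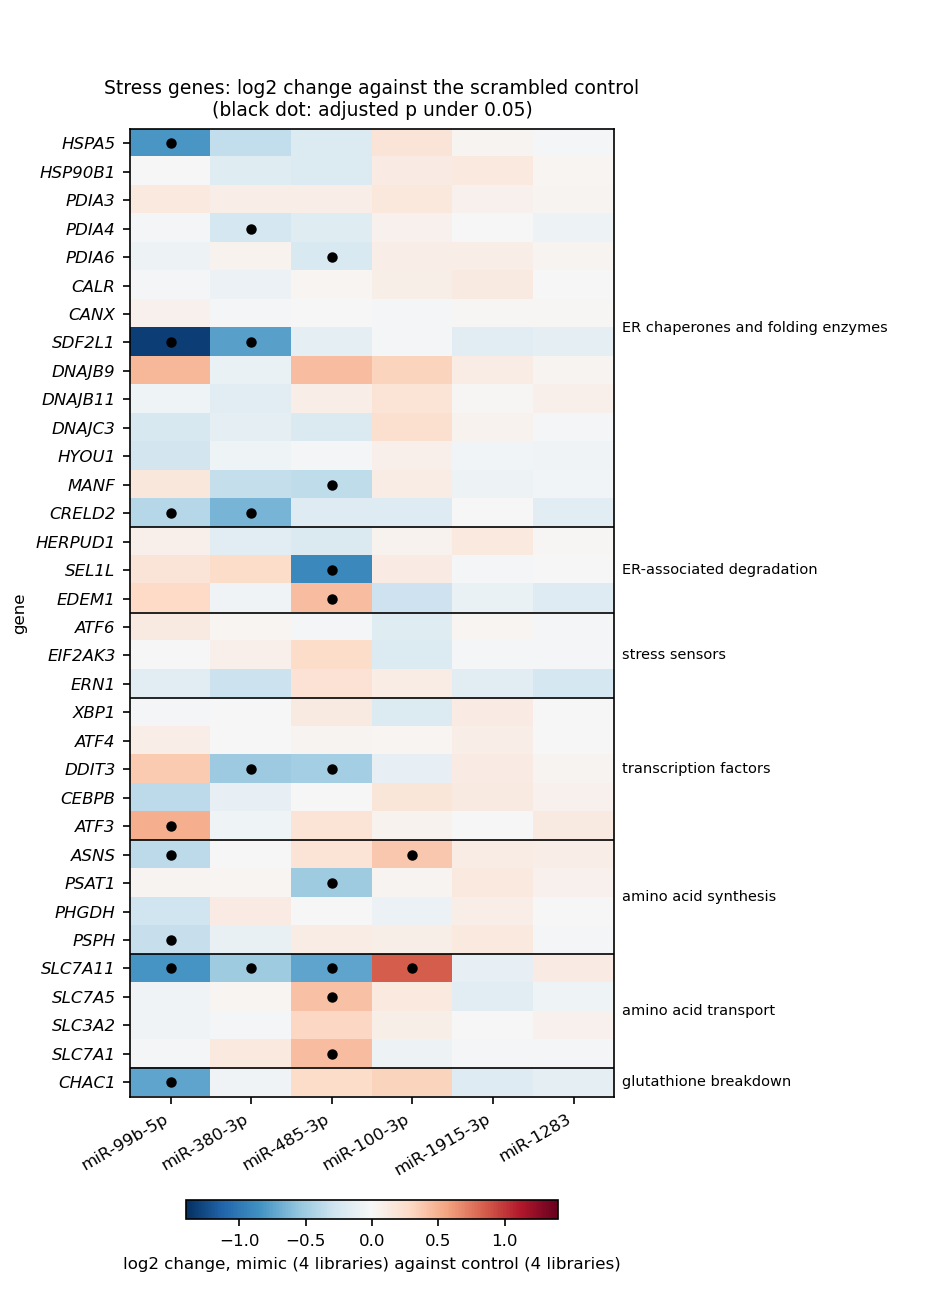
Log2 change of each of the 34 genes (rows, ordered by role) under each mimic (columns) against the scrambled control, 4 libraries in each group, with a black dot where adjusted p was under 0.05. Blue is lower and red higher: 24 cells carry a dot, 18 of them lower, and the columns of miR-1915-3p and miR-1283 carry none.

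With the miR-99b-5p mimic 7 stress genes fell and 1 rose. Over all tested genes 8.48% were called lower and 8.11% higher, so 7 of 34 (20.6%) lower stands above the share of all genes and 1 of 34 (2.94%) higher below it. Because the list was written with earlier results of these data known, such shares, here and under the other mimics, only describe the list. The median log2 change of the 34 was -0.02, near that of all genes (-0.00). By role, 3 of 14 ER chaperones and folding enzymes fell (HSPA5, SDF2L1 and CRELD2), 2 of 4 synthesis enzymes (ASNS and PSPH), 1 of 4 transporters (SLC7A11) and CHAC1, and 1 of 5 transcription factors rose (ATF3). None of the 3 degradation genes or 3 sensors was called. None of the 34 has a miR-99b-5p heptamer in its 3′ UTR. The count of genes higher was 2 when miR-99b-5p replicate 2 or control replicate 5 was left out and 3 when miR-99b-5p replicate 7 was. All genes called either way then numbered 2094, 2086 and 2492, against 2498 in the main fit.

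HSPA5 (ENSG00000044574) encodes BiP, the main HSP70 chaperone of the ER lumen, which also holds the sensors inactive. Its level was 528, 536, 430 and 549 CPM in control replicates 1, 2, 4 and 5, and 335, 299, 213 and 310 CPM in miR-99b-5p replicates 2, 3, 4 and 7. All 4 mimic libraries lay below all 4 controls, with replicate 4 lowest in each group. The log2 change was -0.82 ± 0.13 (SE; adjusted p = 3.42e-05). The other mimic groups measured 437, 453, 366 and 356 CPM (miR-380-3p), 455, 436, 429 and 464 (miR-485-3p), 587, 638, 581 and 512 (miR-100-3p), 567, 580, 545 and 410 (miR-1915-3p) and 564, 570, 458 and 417 (miR-1283). No library of any other group was as low as the highest of miR-99b-5p. Compared directly, HSPA5 was lower under miR-99b-5p than under each of the other 5 mimics, by -0.48 ± 0.13 against miR-380-3p (adjusted p = 0.00579) and by more against the others (adjusted p 1.03e-06 to 0.000333).

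SDF2L1 (ENSG00000128228), a partner of the ER DNAJ co-chaperones, had the largest change of the module. Control libraries read 21.4, 22.5, 20.9 and 26.9 CPM and miR-99b-5p libraries 7.47, 9.49, 8.46 and 11.4 CPM. The 2 groups do not overlap, and the log2 change was -1.31 ± 0.24 (adjusted p = 0.000274). Its transcript has a GC content of 65.5%, against a median of 48.3% over tested genes, and in each of the 6 mimic groups, though not in the control, the library of highest GC slope was also the one with most SDF2L1. Examples are miR-485-3p replicate 2 (33.2 CPM), miR-100-3p replicate 4 (31.3 CPM) and miR-380-3p replicate 2 (20.8 CPM). With the GC slope as a covariate, chosen after seeing the data, the change under miR-99b-5p was -1.05 (adjusted p = 1.01e-06).

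CRELD2 (ENSG00000184164), a secreted ER protein with disulfide isomerase activity, read 23.5, 23.8, 22.5 and 25.6 CPM in control and 17.4, 19.8, 17.5 and 17.8 CPM under miR-99b-5p. The groups do not overlap (-0.39 ± 0.12, adjusted p = 0.0193), though leaving out miR-99b-5p replicate 4 or control replicate 5 ended the call (adjusted p 0.0529 and 0.0605). The other abundant chaperones were not called. The log2 change was -0.00 ± 0.10 for HSP90B1, -0.01 ± 0.07 for PDIA4, -0.02 ± 0.07 for CALR, -0.07 ± 0.07 for PDIA6 and 0.06 ± 0.10 for CANX, with adjusted p from 0.593 to 0.997. PDIA3 leaned upward (0.14 ± 0.07, adjusted p = 0.19), with all 4 mimic libraries above every control. HYOU1, an HSP110-type chaperone (-0.26 ± 0.10, adjusted p = 0.079), and DNAJB9, a co-chaperone that restrains ERN1 (0.46 ± 0.17, adjusted p = 0.0578), missed the threshold. Leaving out miR-99b-5p replicate 7 gave HYOU1 an adjusted p of 0.0408, and leaving out that library, miR-99b-5p replicate 2 or control replicate 5 gave DNAJB9 0.027 to 0.048. Of the 7 genes with an ERSE in the promoter window, HSPA5 and CRELD2 were called lower and HSP90B1, PDIA6, CALR, CANX and XBP1 were not. Of the 3 with an ERSE-II, SDF2L1 was called lower and HERPUD1 and HYOU1 were not. Of the 6 with the amino acid element, ASNS and CHAC1 were called lower and ATF3 higher, while HERPUD1, SLC3A2 and SLC7A1 were not called.

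ATF3 (ENSG00000162772), a stress-inducible bZIP repressor, was the 1 gene that rose under miR-99b-5p. Control libraries read 10.2, 10.9, 10.5 and 9.34 CPM and mimic libraries 16.6, 14.2, 14.5 and 12.6 CPM. All 4 lay above all controls, with replicate 2 highest (0.50 ± 0.12, adjusted p = 0.00289). It was also higher than under each of the other 5 mimics, from 0.31 ± 0.12 against miR-485-3p (adjusted p = 0.0398) to 0.57 ± 0.12 against miR-380-3p (adjusted p = 0.000552). The call against miR-485-3p was lost in 9 of 16 alternatives, among them those leaving out any 1 of miR-99b-5p replicates 2, 3 and 4 and miR-485-3p replicates 2, 3 and 5 (adjusted p 0.0627 to 0.149). DDIT3 (CHOP), the death-linked factor downstream of ATF4, read 6.85, 6.65, 6.93 and 5.47 CPM under miR-99b-5p against 4.49, 5.17, 5.43 and 4.93 in control, every mimic library above every control, and did not pass the test (0.37 ± 0.16, adjusted p = 0.111). With the GC slope as a covariate, chosen after seeing the data, DDIT3 was called higher (0.44, adjusted p = 0.0408). So was ATF4 (0.18, 0.0344), and the co-chaperone DNAJC3 was called lower (-0.36, 0.0426). CEBPB, another bZIP factor, had a log2 change of -0.36 ± 0.23 in the main fit (adjusted p = 0.305).

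On the amino acid side ASNS (ENSG00000070669) read 96.9, 109, 101 and 90.2 CPM in control and 81.4, 80.5, 84.4 and 63.0 CPM under miR-99b-5p, with no overlap and replicate 7 lowest (-0.36 ± 0.08, adjusted p = 0.00211). PSPH, the last enzyme of serine synthesis, read 28.9, 30.7, 30.0 and 25.1 CPM in control and 22.6, 22.7, 23.6 and 22.7 CPM under the mimic (-0.32 ± 0.10, adjusted p = 0.0297). The call of PSPH was lost without any 1 of 6 libraries (control replicates 1, 2 and 4 and miR-99b-5p replicates 2, 3 and 7; adjusted p 0.0552 to 0.0923). PHGDH, the first enzyme of the same path, had a log2 change of -0.28 ± 0.11 (adjusted p = 0.0739; 0.044 without control replicate 5), and PSAT1, the middle one, of 0.04 ± 0.09 (not called).

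CHAC1 (ENSG00000128965), which degrades glutathione and is a usual target of ATF4, read 4.34, 3.50, 4.45 and 3.62 CPM in control and 2.71, 2.11, 1.87 and 2.83 CPM under miR-99b-5p. The groups do not overlap (-0.74 ± 0.25, adjusted p = 0.0449), but the call was lost without any 1 of 7 libraries, all except miR-99b-5p replicate 7 (adjusted p 0.0552 to 0.128). Its transcript is also GC-rich (62.6%), and with the GC slope as a covariate its change was -0.47 (adjusted p = 0.0532). The mean GC slope was 0.48 ± 0.664 in the control and -0.747 ± 1.01 under miR-99b-5p.

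**Figure D3:**
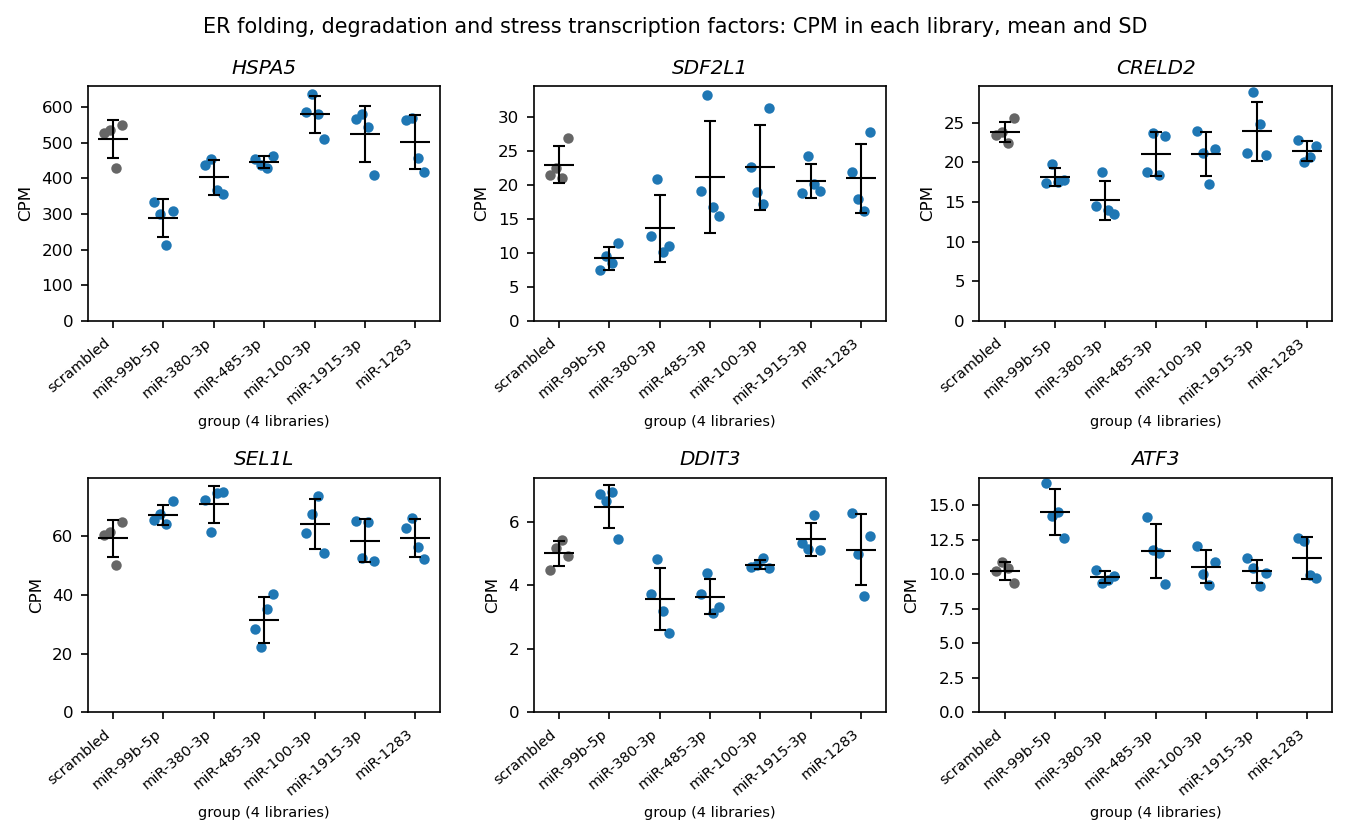
CPM of 6 genes of the ER and stress factor branches in each of the 28 libraries (dots, control in grey), with the mean and SD of the 4 libraries of each group. HSPA5 is lowest under miR-99b-5p (289 ± 52.7 CPM), SEL1L under miR-485-3p (31.5 ± 7.86 CPM), and ATF3 is highest under miR-99b-5p (14.5 ± 1.66 CPM).

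Under miR-380-3p 5 stress genes fell and none rose, against 5.25% lower and 5.6% higher over all tested genes (14.7% and 0% of the 34). The median log2 change of the 34 was -0.06 and that of all genes -0.00. Those that fell were 3 of 14 chaperones and folding enzymes (SDF2L1, CRELD2 and PDIA4), 1 of 5 transcription factors (DDIT3) and 1 of 4 transporters (SLC7A11). The count was 1 or 2 without any 1 of 6 libraries (control replicates 1, 2 and 5, miR-380-3p replicates 1, 3 and 4). All genes called either way numbered 1056 to 1572 in these 6 fits, against 1634 in the main fit.

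CRELD2 gave the firm call: miR-380-3p libraries 1 to 4 read 14.4, 18.8, 14.0 and 13.5 CPM, all below the lowest control (22.5 CPM), with replicate 2 the highest (-0.65 ± 0.12, adjusted p = 0.000412). The difference from miR-99b-5p was not called (adjusted p = 0.117), while CRELD2 was lower than under each of the other 4 mimics (adjusted p 0.000273 to 0.00548). SDF2L1 read 12.4, 20.8, 10.2 and 11.0 CPM, again all below the controls and with replicate 2 close to them (-0.76 ± 0.23, adjusted p = 0.0346). That call was lost without any 1 of 6 libraries (control 1, 2 and 5, miR-380-3p 1, 3 and 4; adjusted p 0.0514 to 0.135).

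PDIA4, a disulfide isomerase, read 184, 209, 175 and 161 CPM against 216, 216, 191 and 238 in control (-0.24 ± 0.07, adjusted p = 0.0365), with replicate 2 inside the control range. Its call was lost without any 1 of 6 libraries (control 1, 2 and 5, miR-380-3p 1, 3 and 4; adjusted p 0.0577 to 0.162) and in the fit of the 8 libraries alone (0.0807). DDIT3 (ENSG00000175197) read 3.72, 4.81, 3.18 and 2.50 CPM, 3 of 4 below all controls (-0.50 ± 0.17, adjusted p = 0.0496), and this call was lost without any 1 of 7 libraries, all except miR-380-3p replicate 2 (0.0549 to 0.214). HSPA5 (-0.34 ± 0.13, adjusted p = 0.0822) and MANF, a secreted ER stress protein (-0.34 ± 0.12, adjusted p = 0.0708), did not pass. HSPA5 was called lower without control replicate 4 (0.0481) and in the fit of the 8 libraries alone (0.035). It was also called lower with the replicate number as a block (-0.30, adjusted p = 0.00471) and with the GC slope as a covariate (0.0274). MANF was called when miR-380-3p replicate 4 (0.0475) or control replicate 2 (0.0406) was left out. It was also called with library-size scaling (0.0369) and with the GC slope (0.0464).

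Compared directly, DDIT3 differed between miR-99b-5p and the 2 mimics under which it fell. It was higher under miR-99b-5p than under miR-380-3p by 0.88 ± 0.16 (adjusted p = 0.000183) and than under miR-485-3p by 0.84 ± 0.16 (adjusted p = 0.000199). DNAJB9 also differed, by 0.56 ± 0.17 between miR-99b-5p and miR-380-3p (adjusted p = 0.0145), a call that was lost without miR-380-3p replicate 4 or miR-99b-5p replicate 3 or 4 (0.0544 to 0.0611). In direct comparisons over all 34 genes, 11 differed between miR-99b-5p and miR-380-3p (24% of all tested genes did), 16 between miR-99b-5p and miR-485-3p (33.5%), 13 between miR-99b-5p and miR-100-3p (23.4%), 11 between miR-380-3p and miR-485-3p (29%), 10 between miR-380-3p and miR-100-3p (17.4%) and 14 between miR-485-3p and miR-100-3p (28.5%).

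Under miR-485-3p 6 stress genes fell and 3 rose. Over all tested genes 10.6% fell and 10.5% rose, so the 17.6% lower lies above the share of all genes and the 8.82% higher near it. The median log2 change was 0.01, against 0.02 over all genes. The genes that fell were the folding genes PDIA6 and MANF, the degradation gene SEL1L, the factor DDIT3, the enzyme PSAT1 and the transporter SLC7A11. The genes that rose were the degradation gene EDEM1 and the transporters SLC7A5 and SLC7A1. The count lower was 3 without control replicate 5, and the count higher was 1 without miR-485-3p replicate 3 and 5 without miR-485-3p replicate 5. The count lower was also 4 with library-size scaling, with no filter and in the fit of the 8 libraries alone. It was 7 with DESeq2 and with the GC slope as a covariate, and 10 with the replicate number as a block. Called lower with the block but not in the main fit were HSPA5 (-0.25, adjusted p = 0.00777), HSP90B1 (-0.23, 0.0101), PDIA4 (-0.19, 0.00652), DNAJC3 (-0.29, 0.0413) and HERPUD1 (-0.21, 0.0395). All genes called either way under miR-485-3p moved too. There were 3176 in the main fit, 3039 with library-size scaling, 2354 with no filter and 2000 in the 8 libraries alone. There were 3260 with DESeq2, 4878 with the GC slope and 3500 with the block. There were 2680 without control replicate 5, and 2240 and 3395 without miR-485-3p replicates 3 and 5. Shares called lower or higher were not computed for these settings, so how the excess moved was not tested.

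SEL1L (ENSG00000071537), the adaptor of the HRD1 ubiquitin ligase that pulls misfolded proteins out of the ER, read 60.3, 61.5, 50.1 and 64.8 CPM in control and 28.2, 22.4, 35.0 and 40.4 CPM in miR-485-3p replicates 1, 2, 3 and 5. Every mimic library lay below every control (-0.91 ± 0.13, adjusted p = 1.39e-05). The other groups stayed at 64.0 to 72.0 CPM (miR-99b-5p), 61.5 to 75.1 (miR-380-3p), 54.2 to 73.6 (miR-100-3p), 51.5 to 65.1 (miR-1915-3p) and 52.0 to 66.2 (miR-1283), none as low as the highest miR-485-3p library. SEL1L was lower under miR-485-3p than under each of these 5 mimics (adjusted p 1.53e-07 to 1.54e-05). EDEM1 (ENSG00000134109), which hands mannose-trimmed glycoproteins to the same degradation route, moved the other way: 22.0, 24.6, 21.4 and 20.4 CPM in control and 27.7, 25.5, 36.7 and 29.4 CPM under the mimic. All 4 lay above all controls, replicate 2 only just (0.44 ± 0.11, adjusted p = 0.0057), and the call was lost without miR-485-3p replicate 3 (adjusted p = 0.079). HERPUD1, the third degradation gene, did not pass (-0.20 ± 0.07, adjusted p = 0.0612) but was called without miR-485-3p replicate 2 or control replicate 1 (0.0178 and 0.0435).

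PSAT1 (ENSG00000135069), the transaminase of serine synthesis, read 74.4, 77.8, 74.7 and 65.4 CPM in control and 49.2, 47.0, 58.8 and 52.4 CPM under miR-485-3p. The groups do not overlap (-0.49 ± 0.09, adjusted p = 0.000233), and PSAT1 was lower than under each of the other 5 mimics (adjusted p 7.22e-06 to 7.11e-05). PHGDH and PSPH, the enzymes before and after it, had log2 changes of 0.01 ± 0.11 and 0.10 ± 0.10 and were not called. PDIA6, a disulfide isomerase, read 405, 406, 356 and 396 CPM in control and 339, 323, 350 and 336 CPM under the mimic, without overlap (-0.22 ± 0.07, adjusted p = 0.0363). Its call was lost without any 1 of 6 libraries (control 1, 2 and 5, miR-485-3p 1, 2 and 5; adjusted p 0.0598 to 0.098).

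The 3 stress genes with a miR-485-3p heptamer were thus 3 of the 6 called lower, and the other 3 that fell (DDIT3, MANF and SLC7A11) have none. For miR-380-3p the 1 gene with a heptamer, SLC7A11, was called lower, as were 4 without. For miR-100-3p none of the 4 genes with a heptamer was called: the log2 change was -0.17 ± 0.09 for ATF6, which has 2, -0.19 ± 0.13 for EIF2AK3, -0.07 ± 0.07 for SLC7A1 and 0.11 ± 0.13 for SEL1L. With the GC slope as a covariate, chosen after seeing the data, ATF6 (-0.23, adjusted p = 0.0394) and EIF2AK3 (-0.29, adjusted p = 0.044) were called. No test was made of these small groups as groups.

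**Figure D4:**
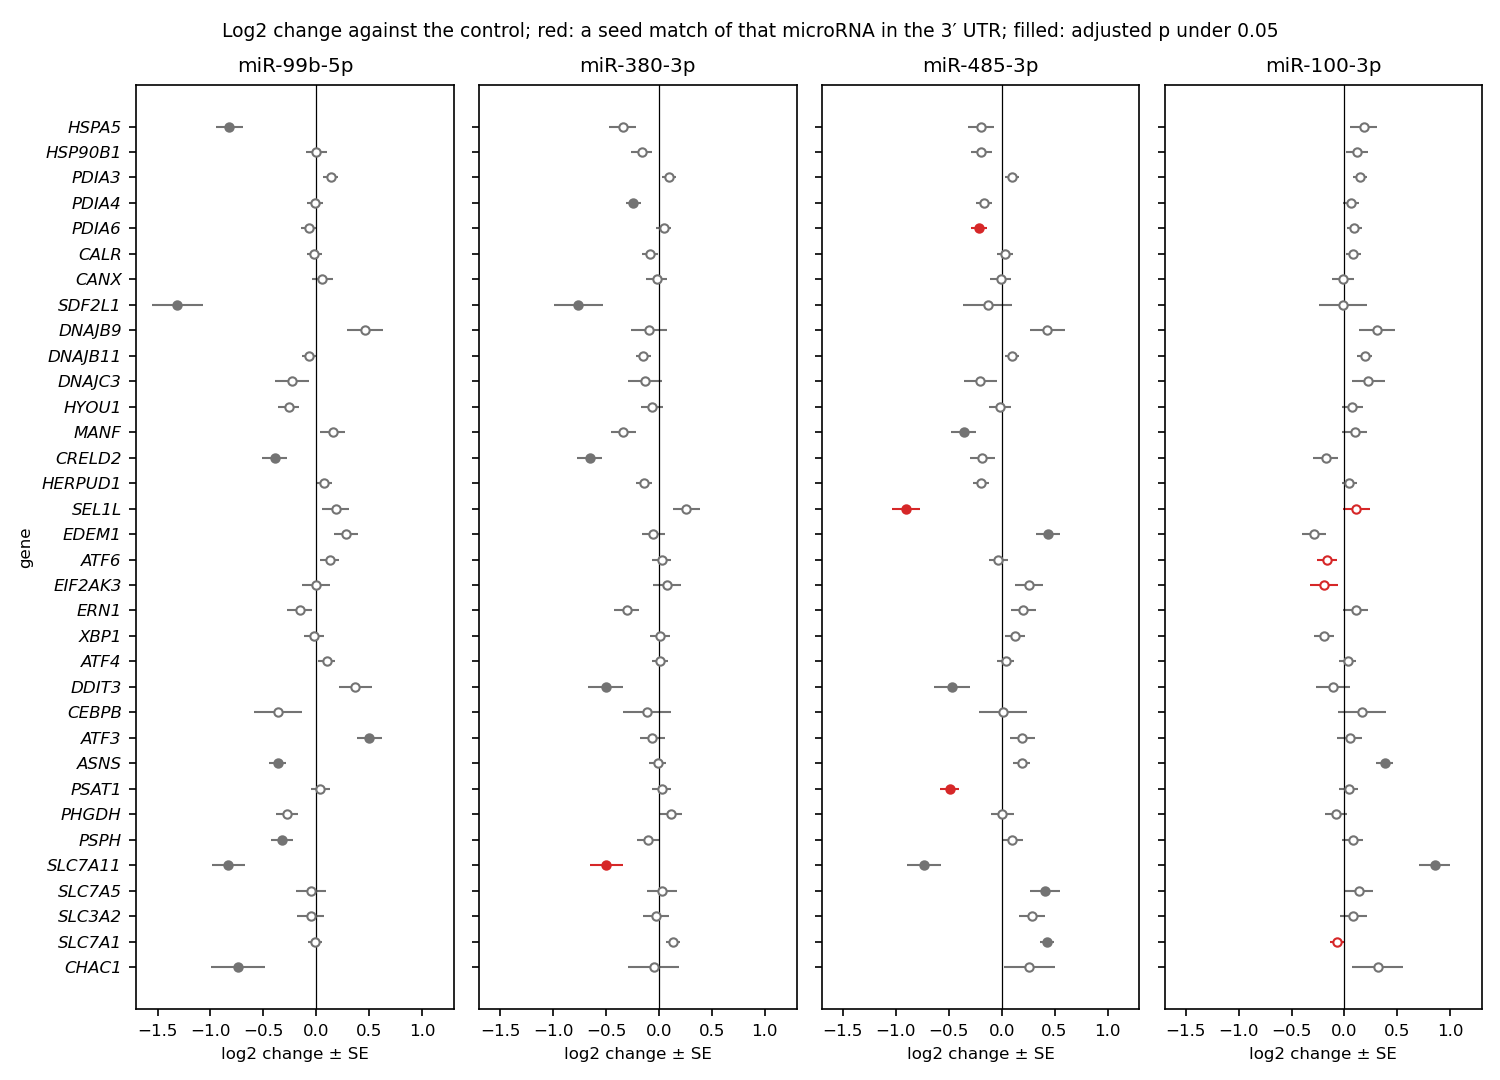
Log2 change ± SE against the scrambled control for the 34 genes under the 4 mimics with called genes, in red where the 3′ UTR holds the heptamer of that microRNA and filled where adjusted p was under 0.05. Under miR-485-3p the 3 red genes (SEL1L, PSAT1, PDIA6) are filled and left of 0, under miR-100-3p the 4 red genes are open, and under miR-99b-5p no gene is red.

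The transporters showed both directions under miR-485-3p. SLC7A1 (ENSG00000139514) read 212, 216, 203 and 225 CPM in control and 299, 272, 304 and 278 CPM under the mimic, with a clear gap between the groups (0.43 ± 0.07, adjusted p = 2.11e-05), and it was higher than under each of the other 5 mimics (adjusted p 1.51e-06 to 0.00105). SLC7A5, the large neutral amino acid transporter LAT1, read 225, 251, 248 and 246 CPM in control and 342, 396, 298 and 250 CPM under the mimic, replicate 5 lying inside the control range (0.41 ± 0.14, adjusted p = 0.0383). Its call was lost without any 1 of 7 libraries, all except miR-485-3p replicate 5 (adjusted p 0.0506 to 0.151). SLC3A2, the heavy chain that SLC7A5 and SLC7A11 both need, had a log2 change of 0.29 ± 0.13 (adjusted p = 0.11) and was called without miR-485-3p replicate 5 (0.0291).

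MANF read 56.1, 45.2, 51.4 and 61.0 CPM in control and 45.4, 46.2, 32.5 and 42.8 CPM under miR-485-3p, where the groups overlap (-0.36 ± 0.12, adjusted p = 0.0321). Leaving out control replicate 1, control replicate 5 or miR-485-3p replicate 3 ended the call (0.0825 to 0.129). DDIT3 read 3.71, 4.38, 3.14 and 3.30 CPM, all just below the controls (-0.47 ± 0.17, adjusted p = 0.0444). Its call was lost without any 1 of 6 libraries (control 2, 4 and 5, miR-485-3p 1, 3 and 5; 0.0729 to 0.124). DNAJB9 (0.43 ± 0.17, adjusted p = 0.0682) did not pass and was called without miR-485-3p replicate 1 or 2 or control replicate 5 (0.0242 to 0.0358). ASNS (0.19 ± 0.08, adjusted p = 0.10; 0.0489 without miR-485-3p replicate 5), EIF2AK3 (0.26 ± 0.13, 0.18; 0.0496 without replicate 2) and PDIA4 (-0.17 ± 0.07, 0.114; 0.0459 without control replicate 4) also crossed the threshold when 1 library was left out.

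Under miR-100-3p 2 stress genes rose and none fell, against 2.9% higher and 3.05% lower over all tested genes (5.88% and 0% of the 34). The median log2 change of the 34 was 0.08, against -0.01 over all genes. Both genes belong to the amino acid side, and no chaperone was called in the main fit. The co-chaperone DNAJB11 had all 4 mimic libraries above every control (0.19 ± 0.07, adjusted p = 0.104). With the replicate number as a block in the fit, DNAJB11 (0.24, adjusted p = 0.0161) and HSPA5 (0.23, 0.0446) were called higher. ASNS read 130, 130, 126 and 132 CPM against 96.9, 109, 101 and 90.2 in control, a tight group above every control (0.38 ± 0.08, adjusted p = 0.00365). ASNS was called in opposite directions under miR-100-3p and miR-99b-5p and differed between them by 0.74 ± 0.08 on the log2 scale (adjusted p = 8.52e-08). EDEM1 was the lowest of the 34 (-0.29 ± 0.11) and did not pass (adjusted p = 0.149; -0.35 and 0.0123 with the GC slope as a covariate).

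SLC7A11 (ENSG00000151012), the light chain of the cystine and glutamate exchanger that supplies cysteine for glutathione, was the 1 gene called under 4 mimics. Control libraries read 12.4, 13.6, 8.51 and 9.80 CPM. Under miR-100-3p it read 19.5, 22.1, 19.5 and 19.0 CPM, far above every control (0.85 ± 0.15, adjusted p = 0.000544). Under miR-99b-5p it read 6.92, 5.38, 7.19 and 5.47 CPM (-0.83 ± 0.16, adjusted p = 0.000407) and under miR-485-3p 6.05, 5.20, 7.38 and 7.83 CPM (-0.74 ± 0.16, adjusted p = 0.00124), all below every control. Under miR-380-3p it read 9.72, 6.41, 7.60 and 7.69 CPM, replicate 1 inside the control range (-0.50 ± 0.16, adjusted p = 0.0365), and this call was lost without any 1 of 5 libraries (control 1 and 2, miR-380-3p 2, 3 and 4; 0.0883 to 0.157).

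The 2 remaining groups stayed near the control for SLC7A11, with 11.9, 9.19, 9.66 and 10.2 CPM under miR-1915-3p and 13.0, 14.1, 10.6 and 10.1 CPM under miR-1283. Ordered by mean, the groups ran from miR-99b-5p (6.24 ± 0.951 CPM), miR-485-3p (6.62 ± 1.21) and miR-380-3p (7.86 ± 1.37) through miR-1915-3p (10.2 ± 1.20), control (11.1 ± 2.33) and miR-1283 (12.0 ± 1.91) to miR-100-3p (20.0 ± 1.42). The direct comparisons called no difference among the 3 lowest, and each differed from miR-100-3p: by -1.68 ± 0.15 (miR-99b-5p, adjusted p = 4.69e-09), -1.59 ± 0.15 (miR-485-3p, 1.22e-08) and -1.35 ± 0.15 (miR-380-3p, 3.25e-07). The level is low throughout, and its partner SLC3A2 was called under none of the mimics.

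**Figure D5:**
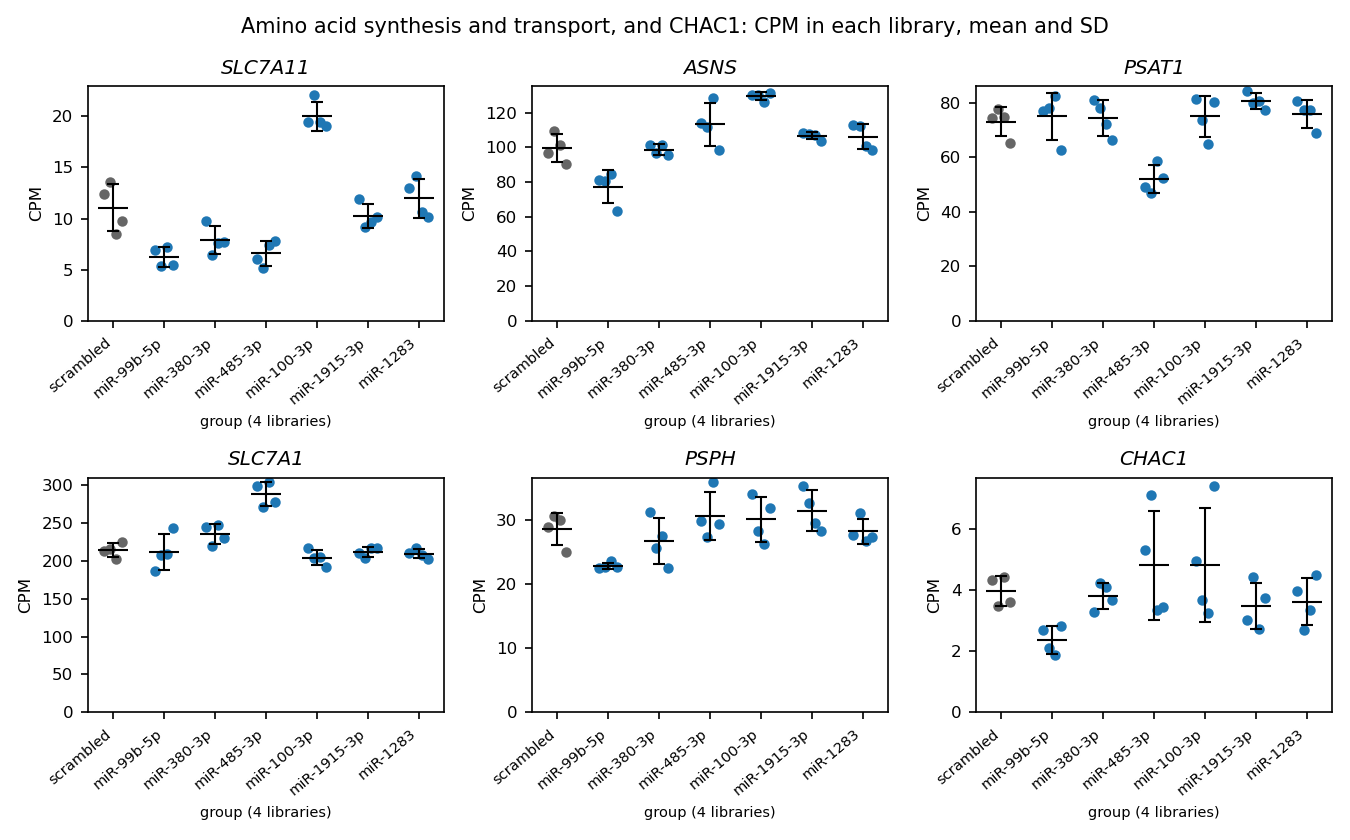
CPM of 5 genes of amino acid synthesis and transport and of CHAC1 in each of the 28 libraries (dots, control in grey), with the mean and SD of the 4 libraries of each group. SLC7A11 stands at 20.0 ± 1.42 CPM under miR-100-3p and at 6.24 ± 0.951 CPM under miR-99b-5p, PSAT1 is lowest and SLC7A1 highest under miR-485-3p.

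Under miR-1915-3p and miR-1283 no stress gene was called in edgeR's test. Over all tested genes 0.0133% were called higher and 0.232% lower under miR-1915-3p, and 0% and 0.0199% under miR-1283, so few calls were there to be shared. At an unadjusted p under 0.05 there were 0 of 34 under miR-1915-3p and 1 under miR-1283, among 956 and 453 of all genes. That 1 gene was ERN1 (-0.25 ± 0.12, adjusted p = 1.0), whose 3′ UTR holds a miR-1283 heptamer. Log2 changes of the 34 ran from -0.18 (CHAC1) to 0.14 (PSAT1) under miR-1915-3p and from -0.25 (ERN1) to 0.13 (ATF3) under miR-1283. For the other mimics the count at an unadjusted p under 0.05 was 14 (miR-485-3p), 13 (miR-99b-5p), 6 (miR-100-3p) and 10 (miR-380-3p).

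Against the control, the sensors ATF6, EIF2AK3 and ERN1 were called under none of the 6 mimics, with log2 changes from -0.30 (ERN1 under miR-380-3p) to 0.26 (EIF2AK3 under miR-485-3p). In the test of any difference among the 7 groups, ERN1 was called (adjusted p = 0.00405). Direct comparisons called ERN1 lower under miR-380-3p than under miR-485-3p or miR-100-3p, and lower under miR-99b-5p than under miR-485-3p. EIF2AK3 was called higher under miR-485-3p, and ATF6 under miR-99b-5p, than under miR-100-3p. These direct calls were lost in 1 to 5 of 16 alternatives each. XBP1 ran from -0.19 to 0.13 and ATF4 from 0.01 to 0.10 against the control. Directly compared, XBP1 was higher under miR-485-3p than under miR-100-3p, a call lost in 2 of 16 alternatives. The table counts reads per gene, so spliced and unspliced XBP1 are not separated.

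Further genes of the same pathways were described from 3 written lists, by their counts only, beside the shares of all tested genes called higher and lower (8.11% and 8.48% for miR-99b-5p, 5.6% and 5.25% for miR-380-3p, 10.5% and 10.6% for miR-485-3p, 2.9% and 3.05% for miR-100-3p). These lists too were written with earlier results of these data known, so their shares only describe them. Of 57 other ER folding and degradation genes, 8 (14%) were called higher and 2 (3.51%) lower with miR-99b-5p, 2 (3.51%) and 1 (1.75%) under miR-380-3p, 11 (19.3%) and 7 (12.3%) under miR-485-3p and 5 (8.77%) and 1 (1.75%) under miR-100-3p. Under miR-99b-5p FKBP2, a prolyl isomerase (-0.97 ± 0.19, adjusted p = 0.000791), and the signal peptidase subunit SPCS1 (-0.52 ± 0.09, 0.000195) fell, and the translocon protein SSR1 (0.40 ± 0.07, 0.000387) and the thioredoxin-domain protein TXNDC5 (0.34 ± 0.06, 0.000391) rose. Under miR-485-3p the oligosaccharyltransferase subunit OSTC fell from 64.3 ± 5.67 to 27.3 ± 4.33 CPM (-1.24 ± 0.09, adjusted p = 9.55e-11) and SRPRB, a subunit of the signal recognition particle receptor, fell by 0.61 on the log2 scale (adjusted p = 1.4e-06). Under miR-380-3p the other receptor subunit, SRPR, fell (-0.61 ± 0.08, 8.36e-06).

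Of 43 other ATF4 and amino acid response genes, 3 (6.98%) were called higher and 9 (20.9%) lower with miR-99b-5p, against 8.11% and 8.48% of all tested genes. The counts were 1 (2.33%) and 2 (4.65%) under miR-380-3p (all genes 5.6% and 5.25%), 8 (18.6%) and 3 (6.98%) under miR-485-3p (10.5% and 10.6%) and 4 (9.3%) and 3 (6.98%) under miR-100-3p (2.9% and 3.05%). The tRNA synthetases YARS (148 ± 12.0 to 93.0 ± 12.7 CPM, -0.67 ± 0.08, adjusted p = 3.3e-07), CARS (-0.49 ± 0.07, 2.19e-05) and WARS (-0.33 ± 0.07, 0.00108) fell under miR-99b-5p. WARS also fell under miR-380-3p (-0.44 ± 0.07, 5.23e-05) and rose under miR-100-3p (0.29 ± 0.07, 0.00694). Under miR-485-3p ALDH18A1, the first enzyme of proline synthesis, fell from 150 ± 6.25 to 54.4 ± 5.28 CPM (-1.47 ± 0.06, adjusted p = 6.62e-15), while the alanyl tRNA synthetase AARS (0.39 ± 0.05, 5.92e-06) and the alanine transaminase GPT2 (0.34 ± 0.07, 0.00124) rose. Under miR-100-3p GPT2 rose (0.30 ± 0.07, 0.0124) and the transsulfuration enzymes CTH (-0.66 ± 0.17, 0.0158) and CBS (-0.35 ± 0.09, 0.026), an alternative source of cysteine, fell.

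Of 29 genes of upstream signalling, 3 (10.3%) were called higher and 3 (10.3%) lower with miR-99b-5p, near the 8.11% and 8.48% of all tested genes. The counts were 1 (3.45%) and 2 (6.9%) under miR-380-3p (all genes 5.6% and 5.25%), 8 (27.6%) and 2 (6.9%) under miR-485-3p (10.5% and 10.6%) and 2 (6.9%) and 1 (3.45%) under miR-100-3p (2.9% and 3.05%). The proteases that cut ATF6 were among them: MBTPS1 rose under miR-99b-5p (0.35 ± 0.06, adjusted p = 6.61e-05) and MBTPS2 fell under miR-380-3p (-0.49 ± 0.12, 0.00929). NFE2L2 (NRF2), an antioxidant factor that EIF2AK3 can activate, rose under miR-99b-5p (0.40 ± 0.09, 0.0021) and miR-100-3p (0.38 ± 0.09, 0.00868). SLC7A11 moved in opposite directions under these mimics, and a link between it and NFE2L2 was not tested. Under miR-485-3p the amino acid sensing kinase EIF2AK4 (GCN2; 0.38 ± 0.07, 0.000589) and its substrate EIF2S1 (0.38 ± 0.07, 0.000323) rose. No gene of the 3 lists was called under miR-1915-3p or miR-1283.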

How the data were processed

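Messenger RNA libraries (TruSeq stranded) of 28 transfections were analysed. The authors deposited 1 table of expected counts, and 10.2% of its values are not whole numbers. Per the submitters' processing notes reads were aligned with STAR to hg19. The counting tool and annotation are not given in the sources used here. Expected counts were rounded, genes kept with filterByExpr of edgeR 4.0.16 (R 4.3.3), scaled by TMM (factors 0.948 to 1.03) and tested with the quasi-likelihood F-test, two-sided, in 1 fit of all 28 libraries (21 residual degrees of freedom). Benjamini-Hochberg adjustment ran over all 15058 genes in each comparison (6 against control, 15 between mimics), with calls at an adjusted p under 0.05. CPM are given as mean ± SD (n = 4) or per library, TPM from the table's gene lengths, and log2 changes ± SE. The 15058 genes include genes that overlap or share sequence, which this counting may split.

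Members, roles and lists were chosen with earlier results of these data known. All members may be named. Per-library values are given for the 10 with the smallest p in the test of any difference and for further called genes, and up to 4 called genes per further list and mimic are named by smallest adjusted p. UTRs of at least 50 bases and promoters are from GRCh38, not the authors' build. The scripts were tested on simulated counts. Alternatives were DESeq2 1.42.0, library-size scaling, no filter, a replicate block, only the 8 libraries of a comparison, and each library left out. The GC slope as a covariate and leaving out 2 miR-1915-3p libraries whose titles carry a suffix were added after seeing the data.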

Additional observations from a re-analysis of the deposited data

Results flagged for a closer look

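Within the 238 sets of 4 libraries formed by 34 genes and 7 groups, 11 held 1 library far from the other 3, where chance gives about 1 in 20. PDIA3 read 526.3 CPM in miR-380-3p replicate 4 against 447.7 to 457.9 CPM in the others. PDIA4 was low in miR-99b-5p replicate 4 (193.3 CPM, others 218.7 to 221.7). PDIA6 was high in miR-99b-5p replicate 2 (400.8 CPM, others 361.8 to 365.9) and low in miR-100-3p replicate 4 (372.9 CPM, others 428.1 to 435.4). DNAJB11 was high in miR-485-3p replicate 5 (138.2 CPM, others 119.4 to 121.9) and HERPUD1 in miR-485-3p replicate 2 (51.47 CPM, others 43.63 to 44.32). EIF2AK3 was high in control replicate 2 (10.19 CPM, others 8.816 to 9.01), and ERN1 low in miR-1915-3p replicate 3 (4.023 CPM, others 5.266 to 5.441). Among genes called in that group, CRELD2 was high in miR-99b-5p replicate 3 (19.78 CPM, others 17.44 to 17.82), PSPH in miR-99b-5p replicate 4 (23.65 CPM, others 22.6 to 22.73) and SLC7A11 in miR-100-3p replicate 2 (22.11 CPM, others 19.01 to 19.46). These 3 values still lay outside the range of the controls.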

How the results depend on the processing

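Among combinations called in the main fit or under at least 1 alternative, and among the direct calls, no log2 change reversed its sign under any alternative. The direction of the other combinations was not compared. Of the 24 called gene and mimic combinations, 12 were called under every alternative: under miR-99b-5p HSPA5, SDF2L1, ATF3, ASNS and SLC7A11, under miR-380-3p CRELD2, under miR-485-3p SEL1L, PSAT1, SLC7A1 and SLC7A11, and under miR-100-3p ASNS and SLC7A11. The other 12 were lost under at least 1, and 25 combinations not called were called under at least 1. The 5 genes lower under miR-380-3p became 2 with no filter, 3 in the fit of the 8 libraries alone, 3 without the 2 suffixed miR-1915-3p libraries, 8 with the GC slope as a covariate, and 1 to 5 with 1 library left out. With the GC slope the count was also 3 higher under miR-99b-5p, 6 higher under miR-485-3p and 3 lower under miR-100-3p, and with DESeq2 it was 2 higher under miR-99b-5p. Leaving out 1 library gave 1 to 3 higher under miR-99b-5p and, under miR-485-3p, 1 to 5 higher and 3 to 6 lower. The number of all genes called either way moved as well. Under miR-380-3p it was 1634 in the main fit, 1147 with no filter and 1557 in the fit of the 8 libraries alone. It was 1463 there without the suffixed libraries and 2778 with the GC slope. The GC slope took it from 2498 to 3497 under miR-99b-5p, from 3176 to 4878 under miR-485-3p and from 897 to 1764 under miR-100-3p. The cause of these shifts was not tested. The replicate block gave 2 higher under miR-99b-5p (all genes called either way: 2659), 10 lower under miR-485-3p (3500) and 4 higher under miR-100-3p (976). It also ended the calls of CRELD2 (adjusted p = 0.0933) and PSPH (0.0582) under miR-99b-5p, of DDIT3 (0.0677) and SLC7A11 (0.0709) under miR-380-3p and of DDIT3 (0.0551) under miR-485-3p. Of 17 pairs of a mimic and a control library with the same replicate number, 9 had deviations correlated over 0.1 (median r 0.113, from -0.0923 to 0.303) and 7 correlated best with their own number. The 79 pairs with different numbers had a median r of -0.0118. These values do not settle whether equal numbers mark pairs, and the main fit treated the libraries as unpaired. Of the 34 genes, CHAC1 and DDIT3, under 8 CPM in every library, had the lowest mean log2 CPM. The 75 direct calls between pairs of the 4 mimics with called genes were recomputed under 16 alternatives each, and 150 of the 1200 values were no longer called. Direct comparisons with miR-1915-3p and miR-1283 were not recomputed.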
